A study of Mus musculus with 8 samples.

Results

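The clustered histone genes of the mouse were taken as every gene whose symbol runs from Hist1h to Hist4h, which gave 67 of the 31053 genes listed for these libraries. They encode the linker histone H1 (6 genes) and the core histones H2A (18), H2B (18), H3 (12) and H4 (13). Of the 67 genes, 54 belong to the Hist1 cluster on chromosome 13, 10 lie on chromosome 3, 2 on chromosome 11 and 1 on chromosome 6. Their RNA was followed in 8 tumours of B16F10, a mouse melanoma line, grown in C57BL/6 hosts aged 12 weeks. Of these, 4 hosts were Atf4wt/wt (2 male and 2 female) and 4 were Atf4D/D (3 male and 1 female), and all carried the tamoxifen-inducible Rosa26::CreERT2 recombinase, which is expressed throughout the body, and were given tamoxifen. The injected melanoma cells had intact Atf4 in both groups, so that the host cells alone differed in genotype. Each tumour was dissociated and counted with a droplet 3′ kit, in which an oligo-dT primer catches the poly(A) end of an RNA and each captured molecule is counted as 1 unique molecular identifier (UMI).

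Clustered histone genes are the textbook case of messenger RNAs without a poly(A) tail. Their transcripts are cut just after a short stem-loop that the stem-loop binding protein SLBP holds, and they accumulate while DNA is copied in S phase, when new chromatin needs histones. Some of the genes can also end further downstream at an ordinary poly(A) site, and a poly(A)-primed library can catch that form. Replacement histones such as H2A.Z and H3.3 come from genes outside the clusters, have ordinary tails and are made throughout the cell cycle.

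The stem-loops of genes that gave most of the UMIs, and of Hist1h2ap, a gene seen almost only in host cells, are printed below as DNA of the sense strand, 5′ to 3′, with the 16-base stem-loop in capitals.
Hist1h1e: cccaaaGGCTCTTTTCAGAGCCacccac
Hist1h1c: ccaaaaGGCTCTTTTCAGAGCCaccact
Hist1h2ae: aacaaaGGCTCTTTTCAGAGCCattcac
Hist1h4d: accaaaGGCCCTTTTCAGGGCCactacc
Hist2h2ac: caaaaaGGCTCTTTTTAGAGCCaccaaa
Hist3h2a: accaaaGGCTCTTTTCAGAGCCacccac
Hist1h3c: aaaaaaGGCTCTTTTAAGAGCCacctaa
Hist1h2ap: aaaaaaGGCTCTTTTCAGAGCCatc
On the GRCm38 build these windows lie in the 3′ UTR (single-exon transcripts) at chr13:23621776-23621803 on the minus strand for Hist1h1e, chr13:23739506-23739533 (plus) for Hist1h1c, chr13:23570662-23570689 (minus) for Hist1h2ae and chr13:23581944-23581971 (plus) for Hist1h4d. Those of the others lie at chr3:96220412-96220439 (minus) for Hist2h2ac, chr11:58955166-58955193 (plus) for Hist3h2a, chr13:23745041-23745068 (minus) for Hist1h3c and chr13:21833026-21833050 (minus) for Hist1h2ap. The core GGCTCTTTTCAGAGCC was found in 25 genes, of types H1, H2A, H2B and H3 and never H4, whereas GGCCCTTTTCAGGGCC was found in 7 genes, all of them H4. A match to the stem-loop pattern on the transcript strand (GG, any 2 bases, CTT, any base, T, any base, AG, any base and GCC, with at most 1 mismatch) lay in the first 100 bases after the stop codon in 43 of the 48 clustered histone genes with enough annotated sequence there (89.6%), against 21 of 20527 other protein-coding genes (0.102%).

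The first question was which of the genes the libraries catch at all. Together the 67 genes held 121936 UMIs, which was between 0.0228% and 0.0410% of the UMIs of a tumour. Capture was very uneven. The first 4 genes (Hist1h2bc, Hist1h1e, Hist1h1c and Hist1h2ae) held 59.3% of these UMIs and the first 12 held 86.9%, whereas 4 genes (Hist1h4m, Hist1h2ao, Hist1h2bq and Hist1h3h) had no UMI in any library. Of the rest, 16 genes had at least 1000 UMIs, 25 had at least 100 but under 1000 and 22 had fewer, and 45 were seen in all 8 tumours. By type, H1 took 33.3% of the UMIs, H2B 25.4%, H2A 23.5%, H4 12.8% and H3 5.09%. These totals count captured 3′ ends and are no measure of how much of each RNA a cell holds.

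Hist1h2bc, an H2B gene, gave 24206 UMIs and was the most captured. Its longest annotated protein-coding transcript (gene at chr13:23684199-23692908) has 2 exons, runs 742 bases past the stop codon and holds no match to the stem-loop motif. For each gene only the longest such transcript was searched, so a motif outside it would be missed. Hist1h1e, which encodes the linker histone H1.4, followed with 23534 UMIs, and its annotated transcript continued for 1153 bases past the stem-loop. The last 300 bases of that transcript were shared in full with an exon of Hist1h2be and with Gm11398, so that the counts of Hist1h1e rest on how the counting placed such reads, and are uncertain in that sense. Hist1h1c, the gene of linker histone H1.2, gave 12998 UMIs with 840 bases past the stem-loop and no shared sequence at its end. Then came Hist1h2ae with 11591 UMIs, Hist1h4d with 7959, Hist2h2ac with 6355, Hist3h2a with 5478 and Hist1h4i with 4673. Among these 5 genes the annotated sequence past the stem-loop ran from 57 bases in Hist2h2ac to 1643 in Hist3h2a. Hist1h3e (1762 UMIs) and Hist1h3f share their last 300 bases in full with each other, and the split of UMIs between them is uncertain.

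Genes with many UMIs tended to have longer annotated 3′ ends. Among the 16 genes with at least 1000 UMIs, 14 held a stem-loop in the annotated transcript, with a median of 569.5 bases past it (range, 11 to 4884). The 25 genes with at least 100 but under 1000 UMIs had a median of 131.5 bases past the stem-loop (20 with a stem-loop) and the 26 genes below 100 UMIs, including those at 0, had a median of 35 (11 with a stem-loop). The bands overlap, since Hist1h2ab gave 1293 UMIs with 11 annotated bases past its stem-loop. Shared sequence changed along with capture, because a median of 18.7% of the 31-base words in the last 300 bases recurred in another gene in the highest band, 47.0% in the middle band and 85.4% in the lowest. Models that stop at the stop codon numbered 1, 3 and 11 in the same order. Most genes below 100 UMIs, with all of those at 0, also lie in the same stretch of the Hist1 cluster, chr13:21715763-21837530. The 18 genes of this stretch gave 57 of the 256120362 UMIs of the melanoma-like cells described below. In the fibroblast-like cells they gave 182 of 3853144. The part of each of these features in the uneven capture was not tested. The annotation used here (GENCODE M21) can differ from the one used for counting.

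**Figure D1:**
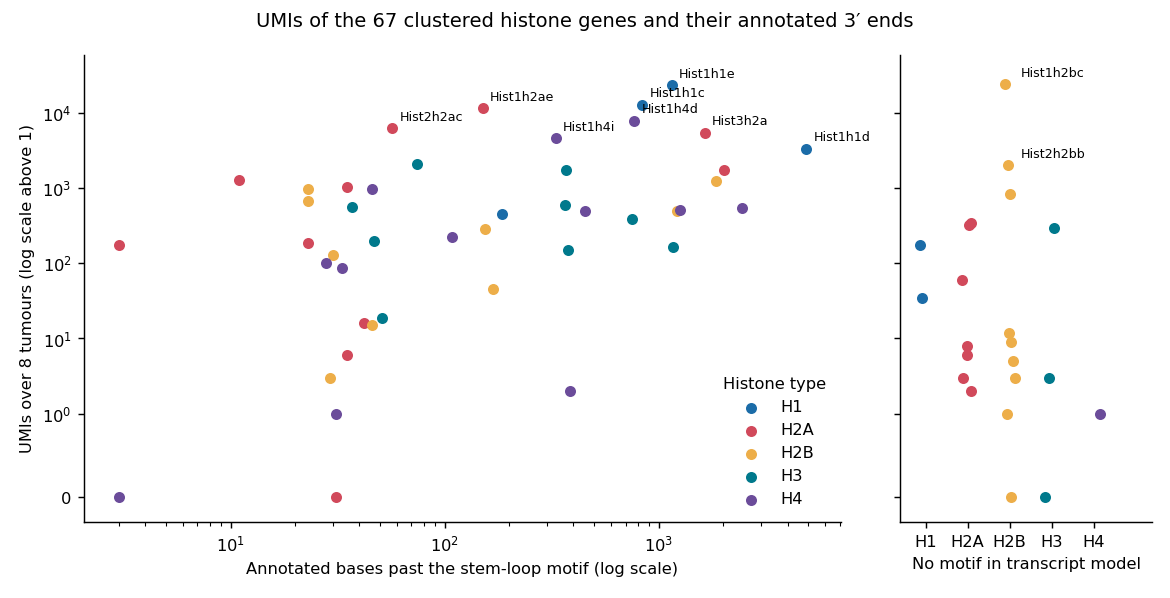
UMIs of each of the 67 genes summed over 8 tumours (y axis, log scale above 1) against the annotated bases past the stem-loop motif (x axis, log scale), coloured by histone type, with the genes whose transcript model holds no motif in the right panel. Genes above 1000 UMIs have a median of 569.5 bases past the motif and those below 100 UMIs a median of 35, with much overlap, and Hist1h2bc is highest with no motif in its model.

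Depth over all deposited barcodes ran from 37283598 to 74942137 UMIs and from 4231 to 8696 barcodes a tumour, and pairs of libraries shared 2 to 14 barcodes. Levels below are given as CPM, the UMIs of a gene per 1000000 UMIs of the same cell class and tumour. Atf4 itself, which checks the labels in host cells, stood at 278, 299, 323 and 290 CPM in cancer-associated fibroblast (CAF)-like cells of the 4 Atf4wt/wt tumours and at 151, 104, 171 and 90.1 in those of the 4 Atf4D/D tumours. In immune cells it ran from 224 to 293 and from 54.7 to 94.0, so that neither cell class overlapped between genotypes, and melanoma-like cells held 262 to 442. The library of Atf4wt/wt replicate 4 was the shallowest and had the lowest share of clustered histone UMIs, and results that change without it are given with and without it. After clustering without the clustered histone genes, 23249 cells were melanoma-like, 898 immune, 729 CAF-like and 38 endothelial-like. Each fold change comes from an edgeR quasi-likelihood fit to summed UMIs with p-values adjusted by the Benjamini-Hochberg procedure over all genes tested.

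The cell cycle of the melanoma-like cells was the second question. Cells were assigned by 3 lists of genes without histones to a state high in G1/S genes (4282 cells), in mid S genes (2682), in G2/M genes (5360) or low in all 3 lists (10925). List scores were standardized within each tumour, so that a state is relative to the other melanoma-like cells of the same tumour. In each tumour 212 to 506 cells had their highest list score within 0.25 of the limit between a state and the low state. Summed over the 67 genes, clustered histone RNA was 205 ± 31.8 CPM (SD, n = 8 tumours) in the low state, 326 ± 62.3 in G1/S, 589 ± 180 in mid S and 377 ± 84.3 in G2/M. The rise from the low state to mid S was between 2.22-fold and 4.70-fold in the individual tumours, the largest being Atf4wt/wt replicate 3. Every tumour was thus higher in mid S than in its own low state, and the lowest mid S value (407) stood above the highest low-state value (238). Mid S cells also held more RNA, with a median of 12810 UMIs a cell against 8868 in the low state.

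By type, H1 went from a mean of 53.9 to 244 CPM between the low state and mid S, H2A from 41.4 to 164, H4 from 20.5 to 73.8 and H3 from 6.84 to 32.8. H2B did not follow, at 82.7 ± 15.1 in the low state and 74.3 ± 17.5 in mid S. That type is dominated by Hist1h2bc.

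Between mid S and the low state, 32 of the 67 genes had enough UMIs to be tested, and 26 were higher and 4 lower in mid S at an adjusted p under 0.05, where 33.6% of all 11576 genes were called higher and 36.3% lower. The median log2 fold change of the 32 genes was 1.87, against -0.031 over all genes tested. A gene seen in 1 state only can pass the filter on low counts through that state, so these counts describe the tested genes and not all 67. Of the 26 higher genes, 22 were higher in each of the 8 tumours and 18 had no overlap between the states. The shares of all genes that did so were not counted, so both numbers only describe these genes. G2/M cells gave the same counts, 26 higher and 4 lower (background, 34.6% and 35.6%), with a smaller median of 1.33, and G1/S cells gave 21 higher and 5 lower (33.8% and 35.8%) with a median of 0.96. Directly against G1/S, 24 of the 32 genes were higher and 1 was lower in mid S, where 8.94% and 5.17% of all genes were. The highest of the 4 state means was in mid S for 28 of the 32 genes and in the low state for the other 4. How many of all genes peak in each state was not counted, so these numbers too only describe the 32 genes.

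Hist1h1e was the clearest of the abundant genes. In the low state its level was 17.9, 27.9, 20.7 and 9.35 CPM in the Atf4wt/wt tumours and 11.4, 9.19, 14.7 and 12.5 in the Atf4D/D tumours. In mid S it was 176, 254, 290 and 127 in the former and 142, 129, 130 and 141 in the latter. All 8 mid S values lay far above all 8 low-state values, a log2 fold change of 3.45 (SE 0.059, adjusted p = 8.7e-46 by edgeR).

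Hist1h2ae, which encodes a core H2A, rose further. Its low-state level lay between 3.01 and 6.69 CPM and its mid S level between 55.6 and 136, with 3.01 and 55.6 both from Atf4wt/wt replicate 4. The log2 fold change was 4.11 (SE 0.064, adjusted p = 1.7e-47 by edgeR). Hist1h1d, the gene of linker histone H1.3, stood at 1.59 ± 0.51 and at 25.6 ± 11.4 (SD, n = 8), a log2 fold change of 3.92. The 2 genes with the largest change were of low level, Hist1h2af at 5.27 (5 UMIs in the low state and 87 in mid S) and Hist1h2ab at 4.29 (48 and 328 UMIs). Hist1h4d, an H4 gene, changed by 2.45 and Hist2h2ac by 2.55.

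A small group went the other way. Hist1h2bc held 87.6, 74.6, 60.5 and 52.0 CPM in the low state of the Atf4wt/wt tumours and 88.9, 66.2, 80.6 and 87.0 in that of the Atf4D/D tumours, and in mid S it held 40.2, 39.2, 41.3 and 30.2 and 51.9, 29.5, 49.2 and 41.5. It was lower in mid S in all 8 tumours, and the highest mid S value lay just under the lowest of the low state (log2 fold change -0.92, SE 0.063, adjusted p = 6.1e-19 by edgeR). Hist3h2a, an H2A gene outside the large clusters, fell more, from 20.1 ± 4.26 to 5.93 ± 1.19 CPM (SD, n = 8), with no overlap and a log2 fold change of -1.79. Hist1h2ac at -0.62 and Hist1h3d at -0.92 were lower in 6 of 8 tumours, and Hist1h3d rests on 23 UMIs in mid S.

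Hist1h1c passed in neither direction. Its level was 36.6 ± 6.74 CPM in the low state and 40.1 ± 9.21 in mid S (SD, n = 8), and the 95% interval of its log2 fold change ran from -0.032 to 0.26. In G1/S it was lower than in the low state (26.2 ± 3.61 CPM, log2 fold change -0.51, adjusted p = 2.8e-08 by edgeR), in each of the 8 tumours, and mid S was higher than G1/S in each (log2 fold change 0.62, adjusted p = 1.4e-07 by edgeR). In G2/M the log2 fold change was -0.15 (adjusted p = 0.046 by edgeR). Hist2h2be was the other gene without a call (log2 fold change 0.21, interval -0.18 to 0.60).

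**Figure D2:**
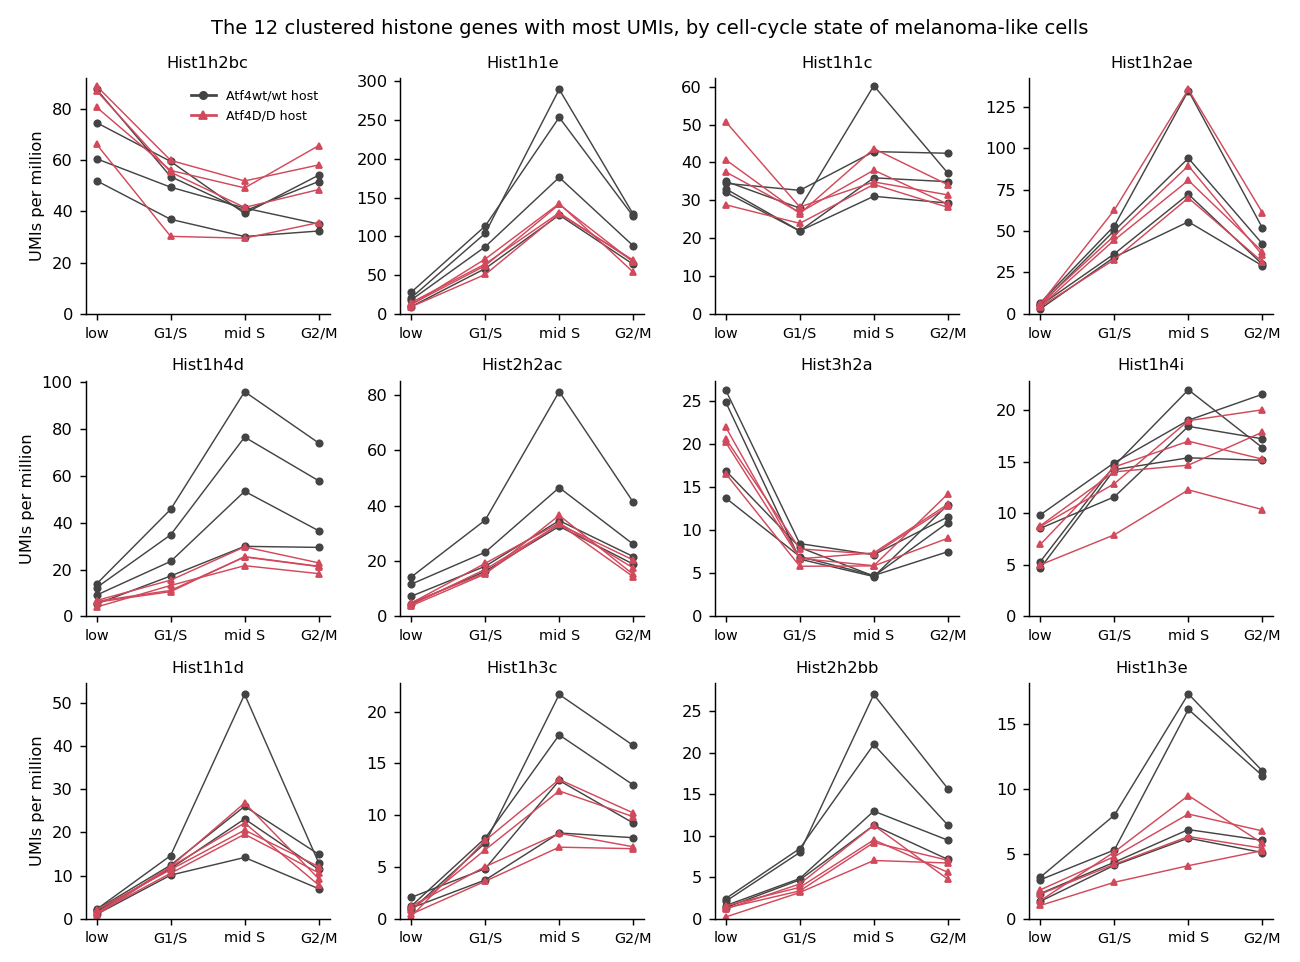
Level of the 12 genes with most UMIs (y axis, CPM, UMIs per 1000000 UMIs of the state) in the 4 states of melanoma-like cells (x axis), with 1 line for each tumour, grey circles for Atf4wt/wt hosts and red triangles for Atf4D/D hosts. Hist1h1e, Hist1h2ae and Hist1h1d peak in mid S in all 8 tumours, Hist1h2bc and Hist3h2a are highest in the low state, and Hist1h1c is lowest in G1/S (mean 26.2).

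The genes that rose and those that fell were compared for their 3′ ends. The 4 lower genes hold 3 with a stem-loop in the annotated transcript, at 752, 1643 and 2010 bases from its end, and Hist1h2bc without one. The 26 higher genes hold 22 with a stem-loop and a median of 257.5 bases past it, but their range of 11 to 4884 spans that of the lower genes, and 7 of them continue for at least 700 bases. A long annotated end therefore did not separate the groups.

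Promoter sequence was set beside this pattern. In 300-base promoters from RefSeq (GRCm38.p6, 62 genes matched), the letters CCAAT, searched on both strands, were present in 85.5% of clustered histone genes and in 37.9% of all 27025 promoters. TATAAA was present in 56.5% and in 14.2%. These are matches of letters only.

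Other genes of histone supply moved in the same comparison. Slbp, the stem-loop binding protein, was higher in mid S by 1.67 and in G1/S by 1.49 on the log2 scale, and in G2/M by 0.37. Among replacement histones, 9 of 10 tested were higher in mid S and 1 was lower, with a median log2 fold change of 0.84. They include H2afz (H2A.Z, 1.2), H2afx (H2A.X, the variant phosphorylated at DNA breaks, 1.12), H1f0 (linker histone H1.0, 0.62) and H3f3b (H3.3, 0.30). H2afz went from 1041 ± 155 to 2407 ± 144 CPM (SD, n = 8), and in G2/M cells the log2 fold changes of H2afx and H2afz against the low state were 1.88 and 1.35. Of the genes for 3′ processing and decay of histone mRNA, 9 of 11 were higher and 2 lower (median 0.48), of the transcription factors of histone locus bodies 5 of 6 were higher and 1 lower (median 0.50), and of histone chaperones 12 of 13 were higher and none lower (median 0.84).

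Thinning each cell to 3000 UMIs and assigning states anew put 3547 cells in mid S and left 15 of the 67 genes testable, of which 11 were higher and 3 lower in mid S than in the low state (background, 26.3% and 28.4%). Between mid S and G1/S, 6 of the 15 were higher in mid S and 0 lower (2.19% and 0.538%). With the states of the full-depth cells kept (2679 cells in mid S), 16 genes could be tested, of which 12 were higher and 2 lower than in the low state (26.6% and 28.9%), and 12 were higher and 1 lower than in G1/S (3.84% and 1.27%). The summed level in mid S was then 568 ± 178 CPM, and 466 ± 123 with states assigned anew (SD, n = 8).

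Barcodes low in RNA or outside the limits of the study were the third question. Low-RNA barcodes were those with less than the median UMIs of their tumour divided by 3, split by mitochondrial share into 1305 with under 1% and 2736 with 1% to 7.5%. They lie within the limits and were clustered, but were left out of the melanoma-like class. Those with almost no mitochondrial RNA held 417 ± 175 CPM of clustered histone RNA (SD, n = 8) against 325 ± 62.1 in melanoma-like cells, and ranged from 168 to 698. Of 35 genes tested, 1 was higher and 0 were lower, where 8.55% and 8.66% of all genes were called. That gene was Hist2h2ab, with 7 UMIs in the class, and the call is lost without Atf4wt/wt replicate 1 or Atf4D/D replicate 1 or 2.
Hist1h4d showed how uneven these sums are. It stood at 33.8, 89.6, 97.1 and 2.95 CPM in the Atf4wt/wt tumours and at 46.3, 7.09, 0 and 0 in the Atf4D/D tumours, from 65 UMIs in all.

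Low-RNA barcodes with a usual mitochondrial share gave 341 ± 69.8 CPM (SD, n = 8). Of 42 genes tested, 5 were higher (Hist1h2ap, Hist1h1b, Hist1h2ak, Hist4h4 and Hist1h2bc) and 2 lower (Hist1h2ae at -0.79 and Hist1h4d at -0.57), with 19.6% and 21.1% of all genes called. Of these barcodes, 720 lay in the immune cluster, 165 in the CAF-like one and 24 in the endothelial-like one. Leaving these out took the number of higher genes to 0, Hist1h1b from 34 UMIs to 1 and Hist1h2ap from 34 to 0.

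Barcodes above the 7.5% mitochondrial limit (12842) had 295 ± 58.7 CPM, and 5 of 39 genes were higher and 11 lower than in melanoma-like cells (background, 20.5% and 21.3%). The higher genes were Hist2h3c2 (1.13), Hist1h3d (0.48), Hist1h2bc (0.42), Hist3h2a (0.42) and Hist1h4h (0.26), and Hist1h1t (-0.89), Hist1h2af (-0.69), Hist1h1e (-0.56) and Hist1h2ae (-0.48) were among the lower ones. Hist1h1t is the linker histone of male germ cells. Without Atf4D/D replicate 1 or 4, 3 genes were higher. Barcodes above the mitochondrial limit were not clustered, and host cells were not set apart. Of the markers tested, 10 of 10 for macrophages, 7 of 7 for immune cells and 8 of 9 for CAF were higher than in melanoma-like cells. All genes of the G1/S (18), mid S (20) and G2/M (20) lists were lower. The part of either in these values was not tested. In barcodes above 5000 genes (497), 2 of 36 genes were called higher and 3 lower, where 7.08% and 8.4% of all genes were, so that the counts lay near the background. The genes were Hist1h1e (0.27) and Hist1h2ae (0.26), and Hist3h2a (-0.37), Hist1h2bc (-0.28) and Hist1h1c (-0.23). The lower calls fell to 1 without Atf4wt/wt replicate 1, Atf4wt/wt replicate 2 or Atf4D/D replicate 2 and to 0 without Atf4D/D replicate 4, and the higher ones went to 4 without Atf4wt/wt replicate 2 and to 1 without Atf4wt/wt replicate 3. Atf4wt/wt replicate 4 had 6 such barcodes and did not enter this fit.

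Host cells came next. Low-RNA barcodes were kept in the host classes, whereas the melanoma-like class leaves them out. Of the immune cells, 720 were low-RNA barcodes with a usual mitochondrial share and 30 had almost no mitochondrial RNA. Of the CAF-like cells these were 165 and 28. The part of this difference in the comparisons below was not tested. Melanoma marker RNA was present in every host sum, at 1127 to 5456 CPM in CAF-like cells and 1568 to 7291 in immune cells against 14874 to 18405 in melanoma-like cells, with all 10 markers detected in each class, and its part in the values below was not tested except where host cells with fewer than 3 melanoma marker UMIs are given. CAF-like cells numbered 10 (Atf4D/D replicate 3) to 241 a tumour and immune cells 35 to 220. The sum of clustered histone RNA was 336 ± 84.8 CPM in CAF-like cells and 463 ± 166 in immune cells (SD, n = 8), against 325 ± 62.1 in melanoma-like cells. Among immune subsets it was 319 to 1101 in T/NK-like cells (6 tumours) and 160 to 799 in tumour-associated macrophage (TAM)-like cells (7 tumours). Of 2 unnamed clusters led by Chil3 and by Mmp12, the former held 171 to 489 (7 tumours) and the latter 216 to 905 (6 tumours). Dendritic-like cells gave 8 UMIs. The last cluster, unnamed, had 74 of the 898 immune cells and both the melanoma genes Dct and Pmel and the mitotic genes Cenpf and Cenpe among its leading genes. It held 316 of the 862 clustered histone UMIs of immune cells (36.7%), at 276 to 1099 CPM (4 tumours). Without it the immune sum was 406 ± 176 CPM (SD, n = 8), and in immune cells with under 3 melanoma marker UMIs it was 345 ± 122.

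Single genes were then compared. In CAF-like cells 7 of 39 genes were higher and 13 lower than in the melanoma-like class, where 28.5% and 27.3% of all genes were called, and in immune cells 11 of 39 were higher and 1 lower (21.9% and 26.6%). These counts hold genes that pass the filter on low counts through the host cells alone, Hist1h1b and Hist1h2ap among them, and so describe the tested genes and not all 67. The 7 became 3 without Atf4D/D replicate 4, and the 1 lower immune gene, Hist1h3f, with 0 UMIs in immune cells, was no longer called when any 1 of 6 libraries (each but Atf4wt/wt replicates 1 and 3) was left out. In host cells with under 3 melanoma marker UMIs, 4 of 35 genes were higher and 7 lower in CAF-like cells (background, 19% and 27.1%), and 3 of 35 were higher and 5 lower in immune cells (15.6% and 30.9%). This choice also keeps fewer and shallower cells, in immune cells 460 of 898 with 584153 of 1795802 UMIs. Atf4D/D replicate 3 kept 2 CAF-like cells and did not enter that fit. The part of depth in the lost calls was not tested. Without the cluster that had Dct and Pmel among its leading genes, 10 of 37 genes were higher and 4 lower in immune cells (21.9% and 30.2%).

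Hist1h1b, the gene of linker histone H1.5, and Hist1h2ap, an H2A gene, had the widest gap. Melanoma-like cells held 5 UMIs of Hist1h1b among 256120362 UMIs, whereas 3853144 UMIs of CAF-like cells held 85 and 1795802 UMIs of immune cells held 70. Its level in CAF-like cells was 56.1, 87.9, 26.7 and 15.8 CPM in the Atf4wt/wt tumours and 11.1, 18.006, 49.0 and 10.2 in the Atf4D/D tumours, and no melanoma-like sum exceeded 0.061. Every host sum of Hist1h1b therefore lay above every melanoma-like sum, in immune cells as well (3.11 to 112). The CAF-like class of Atf4D/D replicate 3 holds 10 cells and 11 clustered histone UMIs in all. Its values here and for Hist1h2ap below thus rest on very few UMIs.

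Hist1h2ap gave 1 UMI in melanoma-like cells, 88 in CAF-like cells and 66 in immune cells. In CAF-like cells its level was 14.8, 30.8, 6.67 and 12.6 CPM in the Atf4wt/wt tumours and 27.8, 56.3, 24.5 and 16.4 in the Atf4D/D tumours. Immune cells held 0 to 60.9, with the 0 from Atf4wt/wt replicate 2, which had 36 immune cells. The ratio of pooled levels, with its exact 95% interval for counting error only, was 1130 (466 to 3569) for Hist1h1b in CAF-like cells and 5849 (1023 to 2.336e+05) for Hist1h2ap. In immune cells the ratios were 1997 (816 to 6340) and 9413 (1632 to 3.774e+05). The cluster with Dct and Pmel among its leading genes held 42 of the 70 Hist1h1b UMIs and 34 of the 66 Hist1h2ap UMIs of immune cells, and without it their pooled levels were 20.9 and 23.9 CPM. The sequence end of Hist1h2ap is shared in full with other genes, so that its counts are uncertain. In host cells with under 3 melanoma marker UMIs, 21 and 11 UMIs of Hist1h1b and Hist1h2ap were left in 255 CAF-like cells and 12 and 9 in 460 immune cells.

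**Figure D3:**
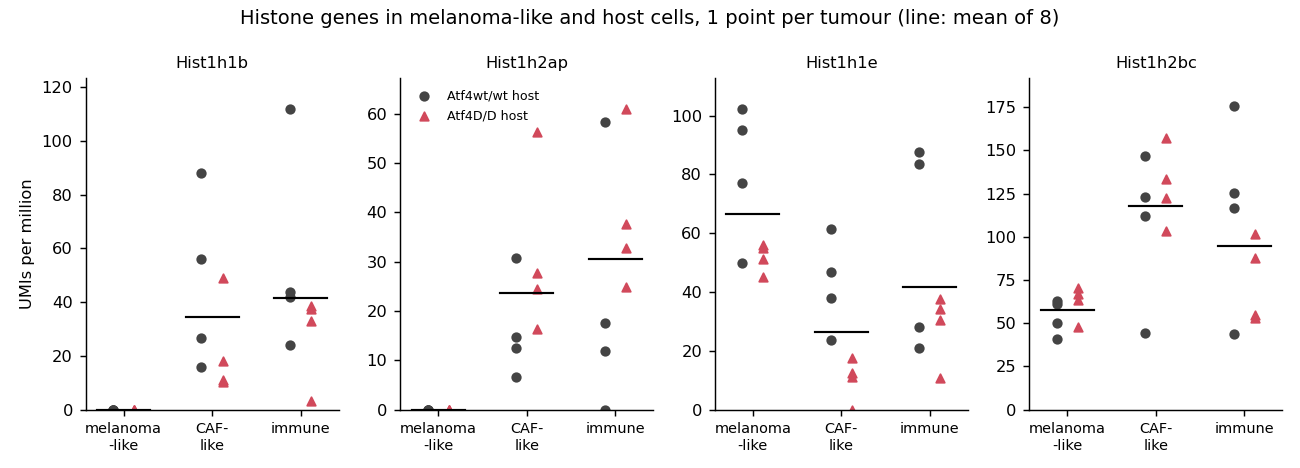
Level of 4 clustered histone genes (y axis, CPM, UMIs per 1000000 UMIs of the class) in melanoma-like, CAF-like and immune cells (x axis), with 1 point for each tumour, grey circles for Atf4wt/wt hosts, red triangles for Atf4D/D hosts and a line at the mean of 8. Hist1h1b and Hist1h2ap lie at or near 0 in all 8 melanoma-like sums and up to 112 and 60.9 in host cells, while Hist1h1e has its highest values in melanoma-like cells.

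Both genes lie in the same stretch of the Hist1 cluster. Between chr13:21715763 and 21837530 there are 18 clustered histone genes, a group drawn up after the values were seen and given without a test. Melanoma-like cells held 57 UMIs of these 18 genes, or 0.223 CPM, and 28 of the 57 were Hist1h2ak. CAF-like cells held 182 (47.2 CPM) and immune cells 152 (84.6 CPM). Most of these host UMIs were those of Hist1h1b and Hist1h2ap given above, the genes that led to this group. The other genes of the stretch held few, and 7 of the 18 genes were seen in CAF-like cells and 10 in immune cells. The other 36 Hist1 genes, from 22035164 to 23934851, stood at 278, 259 and 343 CPM in the same 3 classes. Even mid S cells of the melanoma-like class, with 503 CPM of the other 36 genes, held 18 UMIs of the 18 genes, or 0.517 CPM. Of the genes beside the stretch, Olfr11 gave 143 UMIs and Zfp184 gave 599 in melanoma-like cells.

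Host cells with a UMI of Hist1h1b or Hist1h2ap numbered 46 of 729 CAF-like cells (6.31%) and 52 of 898 immune cells (5.79%), against 4 of 23249 melanoma-like cells (0.0172%). Median depth was 4577 UMIs in CAF-like and 1327.5 in immune cells and at least 8328 in the melanoma-like clusters. RNA of the 3 cell-cycle lists made up 48.3 UMIs per 10000 in CAF-like cells with such a UMI and 18.3 in those without, and 70.7 and 21.0 in immune cells, higher in 8 of 8 tumours in each class. The 8 include Atf4D/D replicate 3 with 1 such CAF-like cell and Atf4wt/wt replicate 2 with 2 such immune cells (10.8 against 9.57). In melanoma-like cells the pooled values were 23.4 with and 42.5 without, but the former rests on 4 cells, each from a different tumour. Of these 4 tumours, 1 (Atf4D/D replicate 4) was higher with such a UMI, at 59.6 against 45.4. The immune cluster with Dct, Pmel and mitotic genes among its leading genes held 42 Hist1h1b and 34 Hist1h2ap UMIs, and was not set apart here. Deeper cells are more likely to show any UMI, so these values are given as a description.

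Among genes seen in all classes, Hist1h2bc was higher in CAF-like cells of all 8 tumours (118 ± 34.5 against 57.9 ± 10.4 CPM, SD, n = 8), by 1.16 on the log2 scale, and in immune cells of 6 of 8 (94.8 ± 44.7), by 0.75. Hist1h1c was higher by 1.16 in immune cells, in 7 of 8 tumours, and by 0.39 in CAF-like cells, in 5 of 8. Hist3h2a was higher by 0.90 in immune cells, whereas in CAF-like cells its interval ran from -0.82 to 0.27. In immune cells with under 3 melanoma marker UMIs none of the 3 genes passed, at log2 fold changes of 0.07 for Hist1h2bc (38 UMIs, 65.1 CPM, adjusted p = 0.85 by edgeR), 0.30 for Hist1h1c (28 UMIs, 47.9 CPM, adjusted p = 0.45 by edgeR) and 0.95 for Hist3h2a (adjusted p = 0.052 by edgeR). In CAF-like cells chosen in the same way Hist1h2bc stood at 1.2 and Hist1h1c at 0.72, and both passed.

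The genes with the strongest mid S rise were lower in CAF-like cells. Hist1h1e was lower in all 8 tumours by 1.25 (log2 fold change -1.25, adjusted p = 1.8e-07 by edgeR), Hist1h2ae changed by -1.29 and Hist1h1d by -2.14, the last from 7 UMIs. In immune cells Hist1h1e did not pass (log2 fold change -0.46, interval -0.86 to -0.062, adjusted p = 0.052 by edgeR). Hist1h1t and Hist1h2af had 0 UMIs in CAF-like cells, so that they were at least 1.75-fold and 1.22-fold lower at a floor of 3 UMIs. The G1/S, mid S and G2/M lists themselves were lower in CAF-like cells, with 14 of 18, 20 of 20 and 17 of 20 genes called.

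Last, the host genotypes were compared. No clustered histone gene passed in melanoma-like cells (0 of 38 tested in either direction, with 0.0239% of all genes called higher and 0.00796% lower in Atf4D/D hosts) and none in mid S cells alone (0 of 23, with 0.0396% and 0.0099%). In CAF-like and immune cells 2 genes each could be tested and none passed (0.0215% higher and lower, and 0% and 0.0306%). Over all genes, edgeR gave an unadjusted p under 0.05 for 1414 genes in melanoma-like cells, 882 in mid S cells, 308 in CAF-like cells and 347 in immune cells. The sum of the 67 genes was 340, 409, 417 and 242 CPM in melanoma-like cells of Atf4wt/wt hosts and 305, 265, 308 and 312 in those of Atf4D/D hosts, and the groups overlap. The median log2 fold change of the 38 genes was -0.17, against -0.0049 over all genes tested, with 11 of the 38 above 0.

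Hist1h4d came closest to a difference. In melanoma-like cells its level was 26.9, 37.6, 44.1 and 17.2 CPM in Atf4wt/wt hosts and 13.8, 11.1, 14.0 and 16.1 in Atf4D/D hosts. The groups do not overlap, although Atf4wt/wt replicate 4 lies just above the highest Atf4D/D tumour, and the log2 fold change was -1.24 (SE 0.241, 95% interval -1.71 to -0.77) with an adjusted p of 0.14 by edgeR. In mid S cells the values were 53.4, 76.5, 95.9 and 29.9 against 25.4, 21.6, 25.5 and 29.7, a log2 fold change of -1.33 (SE 0.244, adjusted p = 0.061 by edgeR).

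Hist2h2bb, an H2B gene on chromosome 3, behaved alike, at 6.30, 8.54, 9.49 and 4.87 CPM against 4.03, 3.08, 4.41 and 4.20 (log2 fold change -0.93, interval -1.33 to -0.53, adjusted p = 0.19 by edgeR). These were the 2 of 38 genes without overlap that were lower in Atf4D/D hosts, in mid S cells too (2 of 23), where 1.3% and 1.28% of all genes were, and 0 were higher without overlap, where 5.39% and 3.58% were.

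The call depended on the test. DESeq2 called Hist2h2bb (adjusted p = 0.0031) and Hist1h4d (adjusted p = 0.019) lower in melanoma-like cells, where it called 0.629% of all genes higher and 0.334% lower, and no clustered histone gene in mid S, CAF-like or immune cells, where it called 0.129%, 0.0646% and 0% of all genes higher and 0.0396%, 0.0215% and 0.0306% lower. In melanoma-like cells, edgeR without Atf4wt/wt replicate 4 called Hist1h4d (adjusted p = 0.027) and Hist1h1e (adjusted p = 0.028), whereas with all 8 tumours Hist1h1e stood at -0.69 (interval -1.05 to -0.33, adjusted p = 0.24 by edgeR). That fit called 1 gene higher and 3 lower of all 12721. Over the 13 alternatives to the main fit Hist1h4d ran from -1.44 to -1.03 and passed in 3, with adjusted p-values up to 0.36 by edgeR. Hist2h2bb passed in 2 and Hist1h1e in 1. In mid S cells Hist1h4d was called without Atf4wt/wt replicate 4 (adjusted p = 0.00047 by edgeR) or without Atf4D/D replicate 2 (adjusted p = 0.042 by edgeR), and without Atf4wt/wt replicate 4 Hist1h1e was called lower there too (log2 fold change -0.84, adjusted p = 0.031 by edgeR), next to -0.66 (adjusted p = 0.26 by edgeR) with all 8 tumours. Of all genes, 3 were higher and 5 lower of 10314 without Atf4wt/wt replicate 4. Without Atf4D/D replicate 2, 17 were higher and 25 lower of 10277. Over the 12 alternatives in mid S Hist1h4d ran from -1.55 to -1.10 and passed in 3, with adjusted p-values up to 0.20 by edgeR. Hist1h2bc showed no such tendency, at 0.17 (interval -0.12 to 0.46), with overlapping groups.

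**Figure D4:**
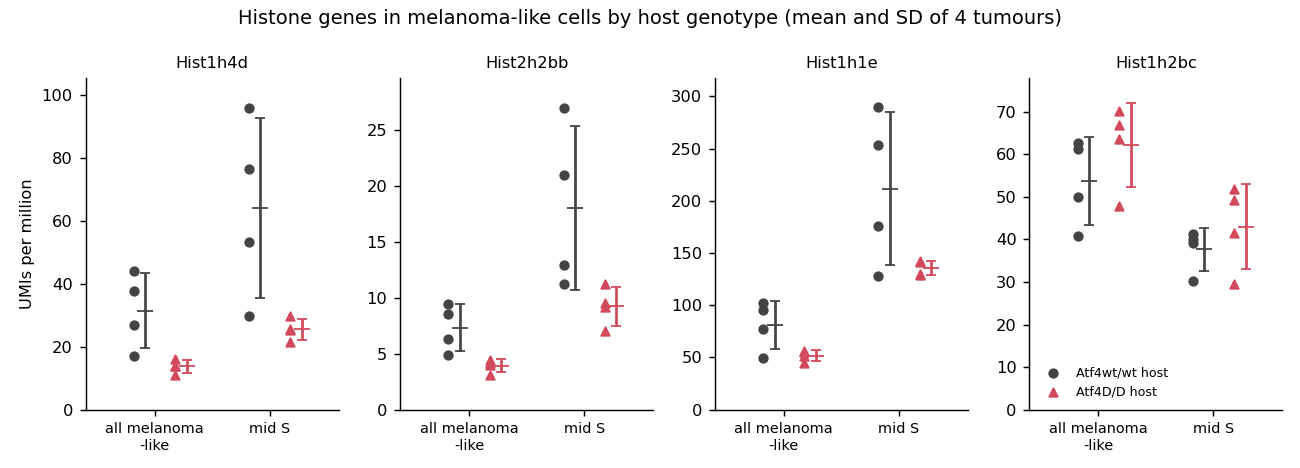
Level of 4 clustered histone genes (y axis, CPM, UMIs per 1000000 UMIs of the class) in all melanoma-like cells and in mid S cells alone (x axis), with 1 point for each tumour and the mean with its SD of 4 tumours, grey for Atf4wt/wt and red for Atf4D/D hosts. Hist1h4d and Hist2h2bb do not overlap between hosts, with 3 of the 4 Atf4wt/wt tumours well above the rest, and Hist1h2bc overlaps.

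The share of melanoma-like cells in each state was also compared between the hosts. Because list scores were standardized within each tumour, the limit of a state moves with the mean of that tumour. The shares and their tests therefore cannot show whether more cells cycle in either genotype, and are given as a description. Mid S cells made up 12.9, 11.7, 10.4 and 12.2% in Atf4wt/wt hosts and 10.9, 9.86, 11.5 and 11.6% in Atf4D/D hosts, a difference of -0.83 percentage points (exact two-sided permutation test over 70 assignments, p = 0.23, adjusted p = 0.80 over the 4 states). The differences were -0.20 points for the low state, -0.38 for G1/S and 1.41 for G2/M, with adjusted permutation p-values of 0.97, 0.80 and 0.80. Host sex was not balanced between the genotypes, and its part in these values was not tested.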

How the data were processed

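Each of 8 tumours gave 1 droplet library, sequenced as 3′ tags. Per the labels, the authors used Cell Ranger 3.1.0 and Seurat 3.2.1 on GRCm38, and the deposited matrices hold raw UMI counts per gene and barcode, not normalized. The labels name the V3 chemistry. The 67 genes and the other gene lists were chosen with earlier results of these data known.

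Barcodes with 200 to 5000 genes and at most 7.5% mitochondrial UMIs, the limits of the study, were clustered with Seurat 5.3.0 (2000 variable genes less 12 clustered histone genes, 20 components, resolution 0.6), giving 28411 cells in 15 clusters, named from fixed markers. No doublet caller was run. Melanoma-like cells, without the low-RNA barcodes, were split by mean z-scores of 3 histone-free lists, standardized within each tumour. UMI counts were summed per tumour and class (at least 10 cells) and tested with edgeR 4.0.16 (TMM, filterByExpr, quasi-likelihood, Benjamini-Hochberg adjustment over all genes, threshold 0.05), with tumour as a block within tumours and no block between genotypes. DESeq2 1.42.0, RLE scaling, no filter, thinning to 3000 UMIs, Seurat phases and leaving out each tumour were alternatives, and leaving host clusters out of low-RNA barcodes, leaving out 1 immune cluster and thinning with the states kept were added after seeing the data. The fits were tested on simulated counts. In the comparison of mid S with the low state, 95.8% of genes changed 2-fold were recovered, and between genotypes 83.6%. The simulation gave each gene the spread usual at its level, added no shift of a tumour and changed genes drawn at random. These rates therefore do not stand for the clustered histone genes. Genes named are the 12 with most UMIs, the 3 largest changes on each side in mid S, the 2 largest in each other class comparison, any genotype call, and H2afz, H2afx, H3f3b, H1f0 and Slbp. Genes added to these after their values were seen are Hist1h2ac, Hist2h2be, Hist1h2ak, Hist4h4, Hist1h4h, the members at 0, Olfr11 and Zfp184. Intervals of ratios and floors cover counting error only. Tumours are labelled as biological replicates. Replicate numbers were not taken as pairs, since same-numbered tumours deviated with correlations of -0.052, -0.35, -0.16 and -0.22.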

Additional observations from a re-analysis of the deposited data

Results flagged for a closer look

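With 4 tumours in each genotype, 77 groups of values were looked at for a tumour far from the other 3, and chance gives about 1 such group in 20. There were 4. Hist2h2ac in mid S melanoma-like cells was 36.5 CPM (UMIs per 1000000 UMIs of the cell class) in Atf4D/D replicate 2, next to 33.8 in the nearest of the other Atf4D/D tumours. Hist3h2a in mid S cells was 7.14 in Atf4wt/wt replicate 1, next to 4.73. The sum of all 67 clustered histone genes in melanoma-like cells was 265.2 in Atf4D/D replicate 2, next to 305 in the nearest of that genotype, and in low-RNA barcodes with a usual mitochondrial share it was 383.4 in Atf4D/D replicate 4, next to 333.8.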

How the results depend on the processing

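Thinning each cell to 3000 UMIs, with states assigned anew, leaves 15 clustered histone genes testable and changes depth and state membership together. The counts against the low state then went from 21 to 11 higher in G1/S, from 26 to 11 higher in mid S and from 26 to 11 higher and from 4 to 2 lower in G2/M, and between mid S and G1/S from 24 to 6 higher and from 1 to 0 lower. With the full-depth states kept, an alternative chosen after seeing the data, 16 genes were testable and the counts were 11 higher in G1/S, 12 higher and 2 lower in mid S, 11 higher and 2 lower in G2/M, and 12 higher between mid S and G1/S. Hist1h1c between mid S and the low state went from 0.11 to -0.21 when thinned with new states and to -0.16 with Seurat phases, and was not called in the main result; the cause was not tested. In low-RNA barcodes with almost no mitochondrial RNA the 1 higher gene became 2 with RLE scaling or without an expression filter and 3 with DESeq2. Over all genes the higher calls there went from 1083 to 1427 with RLE scaling, 1278 without the filter and 1362 with DESeq2. In those with a usual share the 2 lower genes became 1 with RLE scaling or DESeq2, and without host clusters, where fewer barcodes enter, the 5 higher genes became 0 and Hist1h2bc went from 0.30 to -0.0036. Over all genes, lower calls there went from 2913 to 1959 with RLE scaling and 1689 with DESeq2. Higher calls went from 2714 to 783 without host clusters. DESeq2 gave 3 higher genes in barcodes above the mitochondrial limit (5 in the main result), 0 lower above 5000 genes (3), 6 lower in CAF-like cells (13) and 0 lower in immune cells (1), and without the filter 2 were lower in immune cells. Calls over all genes fell with DESeq2 too. Higher calls above the mitochondrial limit went from 2719 to 1951 and lower calls above 5000 genes from 1056 to 663. Lower calls went from 3643 to 2968 in CAF-like and from 3440 to 2583 in immune cells. Without the filter, 3505 of all 20595 genes were lower in immune cells. Host cells with under 3 melanoma marker UMIs gave 4 higher and 7 lower genes in CAF-like cells and 3 and 5 in immune cells, and leaving out the immune cluster with melanoma genes gave 4 lower. Between genotypes, 2 genes were lower in melanoma-like cells with DESeq2 or without the filter (0 in the main result), and without the filter 5 in mid S cells and 2 in CAF-like cells. Calls rose over all genes as well. Without the filter, 14 of all 20332 genes were lower in melanoma-like cells, 118 of 16856 in mid S cells and 41 of 15423 in CAF-like cells, against 1 in each main result. DESeq2 called 42 of 12564 lower in melanoma-like cells.

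Leaving out each tumour in turn gave 3 to 7 higher genes in CAF-like cells, 3 to 6 higher above the mitochondrial limit, 1 to 4 higher and 0 to 3 lower above 5000 genes, 0 to 1 lower in immune cells, 0 to 2 higher in low-RNA barcodes with almost no mitochondrial RNA and 1 to 3 lower in those with a usual share. It gave 0 to 2 lower genes between genotypes in melanoma-like cells and 0 to 2 in mid S cells. Uncalled genotype values that changed sign were those of Hist1h1c (-0.12 to 0.06 in melanoma-like, -0.27 to 0.02 in mid S and -0.08 to 0.81 in immune cells), Hist1h1d (-0.54 to 0.02 in mid S), Hist1h2ae (-0.14 to 0.16 and, in mid S, -0.16 to 0.30) and Hist3h2a (-0.13 to 0.08), and the differences in the share of cells in G1/S (-0.88 to 0.05 points) and in the low state (-2.06 to 1.62). With the replicate block, which the data do not bear out as a pairing, 0 genes were called in either direction in each genotype comparison and Hist3h2a went from -0.01 to 0.01, with no other call changed. All other counts stayed within 1.5 times their main value under the alternatives run. Many genes hold under 10 UMIs in host cells, which limits what can be seen there.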
